A study of Mus musculus with 10 samples.

Results

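The tetraspanins Cd81, Cd9 and Cd82 were read in hippocampal microglia, the resident macrophages of brain tissue, from 14-day-old male pups of the Balbc mouse strain. The 3 genes were chosen by name from the 545 endogenous genes of an nCounter mouse immune panel, and all 3 exceeded the negative-control limit in 10 of 10 lanes. The control group held 5 pups, numbered 1, 18, 40, 52 and 69 in the labels. The BDS group held 5 pups, numbered 11, 17, 24, 38 and 59, exposed to brief daily separation, in which pups are taken from the dam for 15 min a day over postnatal days 1 to 21. At day 14 the BDS pups were therefore still within that schedule, and all pups came from different litters. Microglia were isolated on a Percoll gradient followed by FACS, and 1 lane was read per pup from 2 ng of RNA after 5 rounds of PCR. The genes were picked with results of these lanes known, since Cd81 had stood among the genes lower in BDS pups with the smallest p. Its difference between the groups is therefore given as a description, without a test.

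Tetraspanins are small membrane proteins that cross the membrane several times and gather partner proteins, such as integrins and MHC class II molecules, into patches of the cell surface. Cd81 takes part in the B cell co-receptor with the complement receptor Cr2 and is also a strongly expressed gene of resting microglia. Cd9 takes part in sperm-egg fusion, is common on exosomes, and is known from microglia around amyloid plaques, where its level is raised. Cd82, also named Kai1, is known as a suppressor of metastasis and binds several integrins. The panel held 4 tetraspanins by the family list used, the other being Cd53, which marks leukocytes in general.

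Control 52 had the fewest endogenous counts, 76237, and BDS 17 the most, 968930. Lanes were brought to 1 scale by the geometric mean of 6 housekeeping genes, and the resulting lane factor ran from 0.196 in control 52 and 0.368 in control 69 to 2.18 in BDS 17. On the log2 scale the housekeeping mean was 1.23 higher in BDS lanes, so group and lane signal moved together. All 11 microglia markers on the panel exceeded the limit, and their summed share of endogenous counts was 33.1% to 40.1% in control lanes and 34.6% to 39.0% in BDS lanes. Within that sum the genes moved in different directions. Fitted log2 fold changes, BDS over control, were -0.63 for Cx3cr1, -0.56 for Itgam and -0.03 for C1qb. They were 0.09 for Emr1, 0.17 for Csf1r, 0.28 for Trem2 and 0.40 for Tgfbr1. The rest were 0.48 for Ctss, 0.50 for Irf8, 0.76 for C1qa and 0.83 for Ptprc. None passed an edgeR adjusted p of 0.05. Of 6 B cell markers only Cd79b exceeded the limit in at least 4 lanes, and the Cd81 partner Cr2 exceeded it in 0 lanes. The summed share of B cell markers was 0.0387% to 0.0774% in control lanes and 0.0413% to 0.0585% in BDS lanes. Of 9 genes listed for T cells, 1 exceeded the limit in at least 4 lanes, Cd3eap, which is not specific to T cells. Cd3d, Cd3e, Cd4, Cd8a, Cd8b1, Cd28, Lck and Zap70 did not. The 9 together took 0.0198% to 0.0931% in control lanes and 0.0179% to 0.0348% in BDS lanes. The B and T cell sums include counts at background, which was not subtracted, so these shares rise as lane depth falls. The mean of the negative controls was 11.1 in control 52 and 9.0 in BDS 17, the lanes with the fewest and most counts. These ranges therefore do not compare the number of such cells between groups. Endothelial markers (3 of 4) took 0.197% to 0.397% and 0.214% to 0.263%, but the 3 moved in different directions. Cdh5 averaged 73.2 normalized counts in control and 148 in BDS lanes, Pecam1 765 and 522, and Cd34 455 and 344. Granulocyte and monocyte markers (2 of 6) took 0.371% to 0.909% and 0.264% to 0.448%. Those 2 were Csf3r and Ccr2, which moved in opposite directions. Csf3r averaged 2202 normalized counts in control and 1288 in BDS lanes, and Ccr2 averaged 75.1 and 113. The lower sum in BDS lanes therefore rested on Csf3r. S100a8, S100a9, Cxcr2 and Camp did not exceed the limit in at least 4 lanes. The fixed lists held no astrocyte or oligodendrocyte markers, so the part of those cells in the levels below was not tested. In a bulk sample, fewer cells of a type and less RNA per cell cannot be told apart.

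Cd81 was among the brightest probes of the panel, and its normalized counts were lower in BDS lanes. In control pups it stood at 62288 normalized counts in pup 1, 43999 in pup 18, 37976 in pup 40, 38250 in pup 52 and 48147 in pup 69. In BDS pups it stood at 40538 in pup 11, 27641 in pup 17, 32663 in pup 24, 32184 in pup 38 and 35925 in pup 59. All 5 BDS values lay below the control mean and 4 lay below the lowest control value, with BDS 11 inside the control range. The control mean was 46132 ± 9978 and the BDS mean 33790 ± 4789 (SD, n = 5 each), and the fitted log2 fold change was -0.45 ± 0.17 (SE). Over the 283 genes tested the median log2 fold change was 0.09, and Cd81 held position 43 from the lowest.

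The share of Cd81 in a lane needs no housekeeping gene. It took 14.7% of endogenous counts in control 1, 10.6% in control 18, 8.71% in control 40, 9.84% in control 52 and 9.85% in control 69. The shares in BDS lanes were 9.81% in pup 11, 6.21% in pup 17, 7.78% in pup 24, 6.93% in pup 38 and 7.78% in pup 59. Control 1 was the highest on both scales, and BDS 17 the lowest. By raw count Cd81 was the first of the 545 genes in controls 1, 18 and 40. In the other lanes Csf1r, the receptor for the growth factor that keeps microglia alive, was first, and Cd81 ranked 2 in controls 52 and 69 and in BDS 11, 24 and 59, and 3 in BDS 17 and 38. Ranks compare counts of different probes, which bind and amplify unequally, so they do not give the order of transcript numbers.

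**Figure D1:**
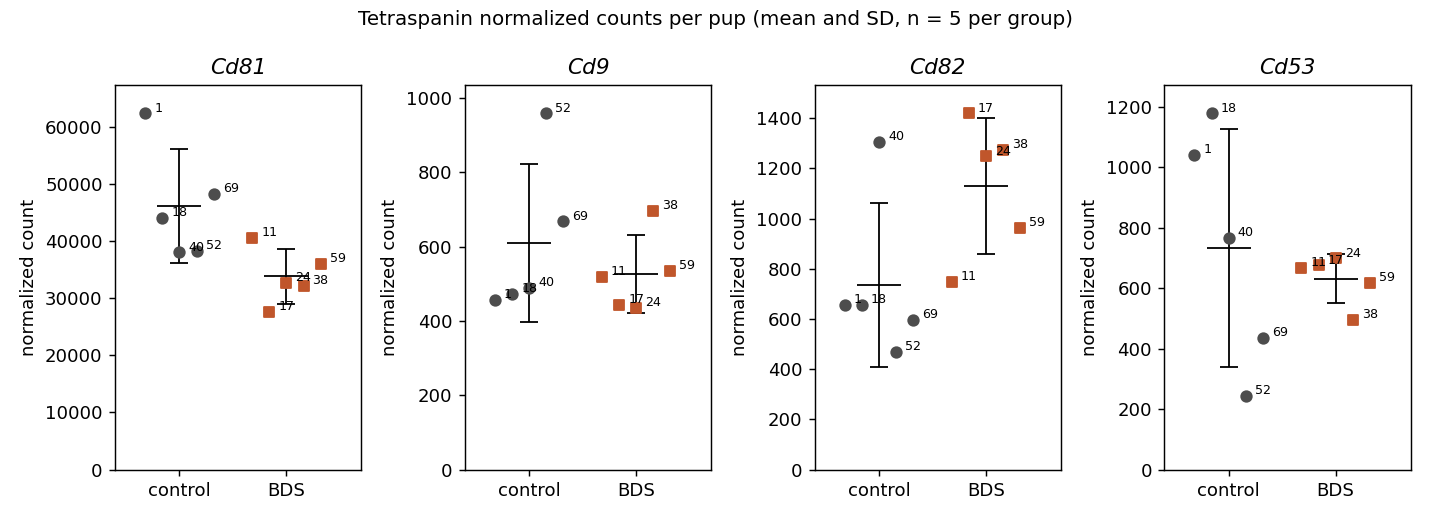
Normalized counts of Cd81, Cd9, Cd82 and Cd53 (y axes from 0, 1 panel per gene) in each control pup (grey circles) and BDS pup (orange squares), with pup numbers. Horizontal bars are group means and error bars SD (n = 5 each); 4 BDS values of Cd81 lie below every control value, and control 52 stands highest for Cd9 and lowest for Cd82 and Cd53.

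Cd82 was higher in BDS pups on average, but control 40 stood as high as most of them. Its normalized counts were 657 in control 1, 657 in control 18, 1305 in control 40, 469 in control 52 and 595 in control 69. They were 746 in BDS 11, 1419 in BDS 17, 1247 in BDS 24, 1272 in BDS 38 and 964 in BDS 59. The other four control lanes lay below every BDS lane, and all 5 BDS values exceeded the control mean. The control mean was 737 ± 327 and the BDS mean 1130 ± 270 (SD, n = 5 each). The fitted log2 fold change of 0.61 ± 0.27 (SE) had an edgeR adjusted p of 0.156 and did not pass the threshold of 0.05. Without control 40 it was 0.92 ± 0.22 (edgeR adjusted p = 0.0254), with lane depth as a covariate 0.13 ± 0.21 (edgeR adjusted p = 0.734), and without the lanes of lowest signal, control 52 and 69, 0.37 ± 0.27. Control 40 was the control lane of highest signal (lane factor 1.84), so leaving it out widened the gap in lane signal between the groups.

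In raw counts Cd82 ran from 92 in control 52 to 3087 in BDS 17. The count of 92 has an exact 95% Poisson interval of 74.2 to 113, which covers counting error only, and was 3.77 times the negative-control limit of that lane. For Cd82, RefSeq lists 7 curated transcripts in the mouse, and the panel names 1 of them as the target. Which of the others that probe also binds was not tested.

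Cd9 did not separate the groups. Its normalized counts were 456 in control 1, 474 in control 18, 490 in control 40, 959 in control 52 and 668 in control 69. In BDS pups they were 519 in pup 11, 443 in pup 17, 436 in pup 24, 696 in pup 38 and 535 in pup 59. The ranges overlapped, and the 2 highest control values belonged to the lanes of lowest signal. The control mean was 609 ± 213 and the BDS mean 526 ± 105 (SD, n = 5 each). The fitted log2 fold change was -0.20 ± 0.23 (SE), with an edgeR adjusted p of 0.587. It changed sign without control 52, to 0.015 ± 0.19, and with lane depth as a covariate, to 0.18 ± 0.23.

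Cd53 was looked at beside the members as the remaining tetraspanin of the panel. It ranged from 245 in control 52 to 1178 in control 18, and from 496 in BDS 38 to 698 in BDS 24. The BDS lanes all lay within the control range. Its fitted difference was -0.23 ± 0.32 on the log2 scale (SE), with an edgeR adjusted p of 0.635.

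Across the panel 0 of 283 genes (0%) passed edgeR's adjusted p of 0.05, and so did neither Cd9 nor Cd82. DESeq2 called 25 genes at the same bound and limma 0. At an unadjusted p under 0.05, 80 genes (28.3%) passed by edgeR, 55 higher and 25 lower in BDS, with Cd82 among them and Cd9 not. The groups did not overlap in 13 genes (4.59%), none of them a tetraspanin. In the authors' deposited table the ratio of group means, BDS over control, was 0.64 for Cd81, 1.37 for Cd82 and 0.74 for Cd9. The unadjusted p in the authors' deposited table was 0.114 for Cd82 and 0.2313 for Cd9. The scale factors of that table matched the housekeeping mean with Sdha left out. The log of their product with that mean had an SD of 2.4e-05 without Sdha. With no gene left out the SD was 0.0857. The reported fit kept Sdha and so departed from the authors' scaling. Leaving Sdha out here gave log2 fold changes of -0.63 ± 0.18 for Cd81, 0.45 ± 0.24 for Cd82 and -0.41 ± 0.25 for Cd9. Sdha itself stood at 451 ± 157 normalized counts in control pups and 227 ± 35.0 in BDS pups (SD, n = 5 each).

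The ratio of a pair of members within 1 lane cancels any lane factor. The log2 ratio of Cd82 to Cd81 raw counts was -6.56 in control 1, -6.06 in control 18, -4.86 in control 40, -6.33 in control 52 and -6.33 in control 69. In BDS lanes it was -5.76 in pup 11, -4.28 in pup 17, -4.71 in pup 24, -4.66 in pup 38 and -5.22 in pup 59. Again control 40 stood inside the BDS range, and the other four control lanes lay below every BDS lane. The means differed by 1.10 (control -6.03 ± 0.68, BDS -4.93 ± 0.57, SD, n = 5 each), more than the pooled SD of 0.63. The Cd82 to Cd9 ratio was 0.24 ± 0.90 in control and 1.09 ± 0.49 in BDS lanes, a difference of 0.84 against a pooled SD of 0.73. Without control 52 that difference was 0.53 (pooled SD 0.56), and without controls 52 and 69 it was 0.28 (pooled SD 0.50). For Cd9 to Cd81 the values were -6.28 ± 0.65 and -6.01 ± 0.30, a difference of 0.26 within the pooled SD of 0.50. The last difference was 0.06 without control 1, 0.14 without BDS 38, 0.50 without control 52 and 0.62 without controls 52 and 69, the last pair above their pooled SDs of 0.35 and 0.34. A ratio cancels a scale factor but still moves with lane signal where the members follow it unequally. With group means subtracted, r with the log2 housekeeping mean over 10 lanes was 0.94 for Cd82 to Cd9, 0.72 for Cd82 to Cd81 and -0.45 for Cd9 to Cd81. Cd81 was picked with its lower values in BDS lanes known, and a lower Cd81 raises both ratios to it. Those ratios are therefore not separate support for a difference, also where a gap exceeds the pooled SD. All the ratios are given as descriptions, without a test.

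**Figure D2:**
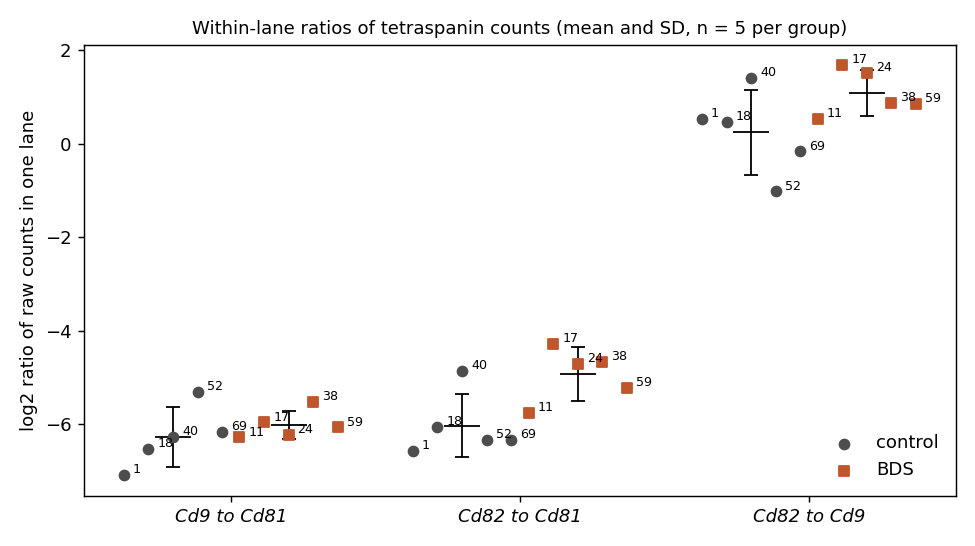
Log2 ratio of raw counts of 2 tetraspanins read in the same lane (y axis), for control pups (grey circles) and BDS pups (orange squares), with pup numbers, group means and SD (n = 5 each). For Cd82 to Cd81, control 40 at -4.86 lies among the BDS lanes, while the remaining controls lie at -6.06 or lower.

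Cd82 followed the signal of the lane in both groups. After each group's mean was subtracted, Pearson's r between the log2 normalized count and the log2 housekeeping mean over 10 lanes was 0.87 for Cd82, -0.72 for Cd9, -0.17 for Cd81 and 0.75 for Cd53. These values are descriptions, because a normalized count is itself divided by that mean. In the same order they were 0.92, -0.72, -0.07 and 0.70 with TMM scaling, and 0.85, -0.81, -0.42 and 0.68 on the deposited scores. For Cd81 the fit that held lane depth gave -0.39 ± 0.20 on the log2 scale, beside -0.45 ± 0.17 without that term.

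Lanes of like signal, set side by side after their values were seen, give the members as follows. Control 1 and BDS 11 had lane factors of 0.800 and 0.827. In that order Cd81 stood at 62288 and 40538, Cd82 at 657 and 746, and Cd9 at 456 and 519. Control 40, with a factor of 1.84, lay between BDS 24 at 1.73 and BDS 38 at 1.93. Here Cd81 stood at 37976 in control 40 against 32663 and 32184 in the BDS lanes, Cd82 at 1305 against 1247 and 1272, and Cd9 at 490 against 436 and 696. Control 1 is the lane with the highest Cd81 of all 10, and these few lanes are values only.

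**Figure D3:**
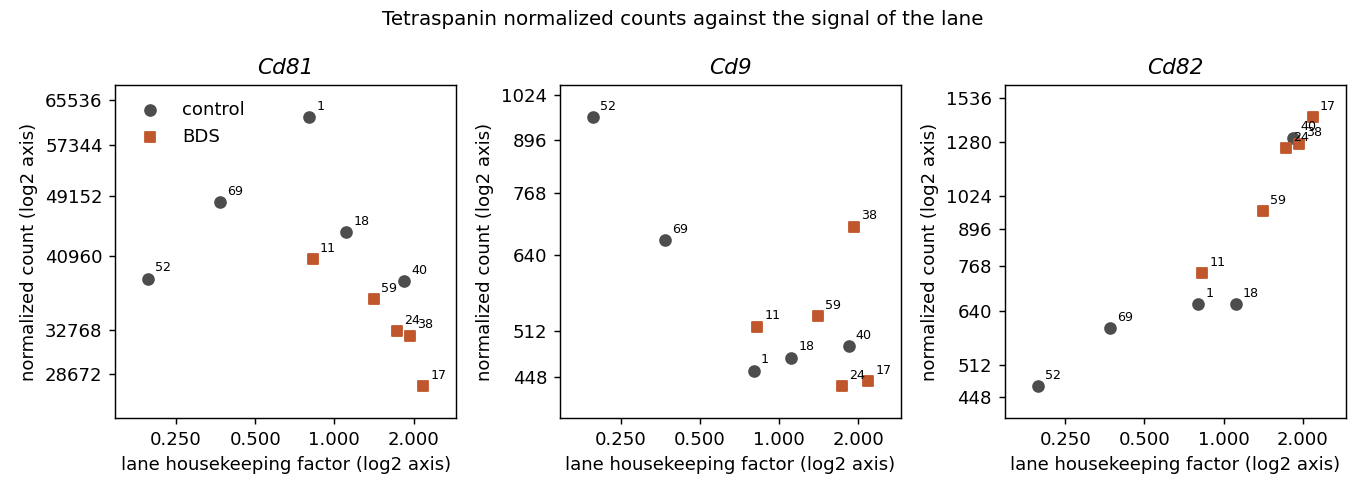
Normalized counts (y axis, log2) of Cd81, Cd9 and Cd82 against the housekeeping factor of the lane (x axis, log2; geometric mean over lanes set to 1) in control (grey circles) and BDS pups (orange squares), with pup numbers. Cd82 climbs from 469 in control 52 to 1419 in BDS 17, the lanes of lowest and highest signal, and control 40 sits with BDS 24 and BDS 38.

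The members also differed in their spread between pups. The coefficient of variation of Cd81 was 21.6% in control and 14.2% in BDS lanes, below the medians over 283 genes of 31.2% and 19.9%. That of Cd82 was 44.3% and 23.9%, and that of Cd9 35.0% and 19.9%. When each lane was left out in turn, a check chosen after seeing the data, the order of the groups rested on 1 control lane for each member. Without control 1 the control value of Cd81 was 11.6%, without control 52 that of Cd9 was 18.9%, and without control 40 that of Cd82 was 14.9%, each below the BDS value. The median over 283 genes was 24.8% in control lanes without control 52.

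The members did not share 1 pattern across pups. With group means subtracted, r over 10 lanes was -0.25 between Cd81 and Cd9, -0.46 between Cd81 and Cd82, and -0.48 between Cd9 and Cd82. With TMM scaling the 3 values were -0.05, -0.17 and -0.58, and on the deposited scores 0.02, -0.71 and -0.58, so the 2 that involve Cd81 moved widely with the scaling. The genes most like Cd81 by this measure, among 282 candidates, were Ctnnb1 (r = 0.82), which encodes beta-catenin, the integrin chain Itgam (0.82) and Tgfbi (0.82), an extracellular matrix protein induced by TGF-beta. Their log2 fold changes, BDS over control, were -0.53 ± 0.24 for Ctnnb1 (edgeR adjusted p = 0.156), -0.56 ± 0.18 for Itgam (edgeR adjusted p = 0.0964) and -0.26 ± 0.24 for Tgfbi (edgeR adjusted p = 0.500), none passing 0.05. Most like Cd82 were Itga6 (0.96), the integrin alpha-6 chain, the RNA sensor Tlr3 (0.94) and the transcription factor Stat5a (0.93). Most like Cd9 were Plau (0.93), the urokinase protease, the hypoxia factor Hif1a (0.92) and the proteasome subunit Psmd7 (0.91). Places in these lists depend on the setting. With TMM scaling Tgfbi, Tlr3 and Psmd7 each ranked 4, and without centring on group means Tgfbi ranked 6, Itga6 7 and Hif1a 9. All genes read in a lane share its scaling and its depth. The r with lane signal was 0.84 for Itga6, 0.94 for Tlr3 and 0.75 for Stat5a, and -0.76 for Plau, -0.85 for Hif1a and -0.84 for Psmd7, and 0.28 for Itgam, 0.15 for Ctnnb1 and 0.17 for Tgfbi.

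Most known tetraspanin partners did not rise above the negative-control limit. Of 34 listed, 31 were on the panel and 9 exceeded the limit in at least 4 lanes. Of those 9, 5 were higher and 4 lower in BDS lanes, with a median log2 fold change of 0.22 beside 0.09 over all 283 genes, where 158 were higher and 125 lower. By edgeR's adjusted p of 0.05, 0 of 9 passed, and at an unadjusted p under 0.05, 4 did, or 44.4% beside 28.3% of all genes.

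The integrin beta-1 chain Itgb1, which pairs with many alpha chains, ran from 2320 to 3512 normalized counts in control pups (median 2555) and from 3000 to 5009 in BDS pups (median 4427). The fitted difference was 0.65 ± 0.19 on the log2 scale, with an edgeR adjusted p of 0.0706. Itga5, the fibronectin-binding alpha chain, was at 0.54 ± 0.22 (edgeR adjusted p = 0.149), and Itga6, a laminin-binding chain, at 0.25 ± 0.23 (edgeR adjusted p = 0.498). Itgam, the alpha chain of complement receptor 3, ran from 26010 to 50514 in control lanes (median 37001) and from 22113 to 28053 in BDS lanes (median 26448). Cd74, the MHC class II invariant chain, exceeded the limit in 6 lanes and was at 1.098 ± 0.51 (edgeR adjusted p = 0.169), with a highest value of 119 in BDS lanes beside a median of 25.4. The Fc receptor chain Fcer1g was at -0.21 ± 0.21, the class II chain H2-Ab1 at -0.16 ± 0.20 and the adhesion molecule Icam1 at -0.11 ± 0.23, with edgeR adjusted p of 0.506, 0.592 and 0.779.

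**Figure D4:**
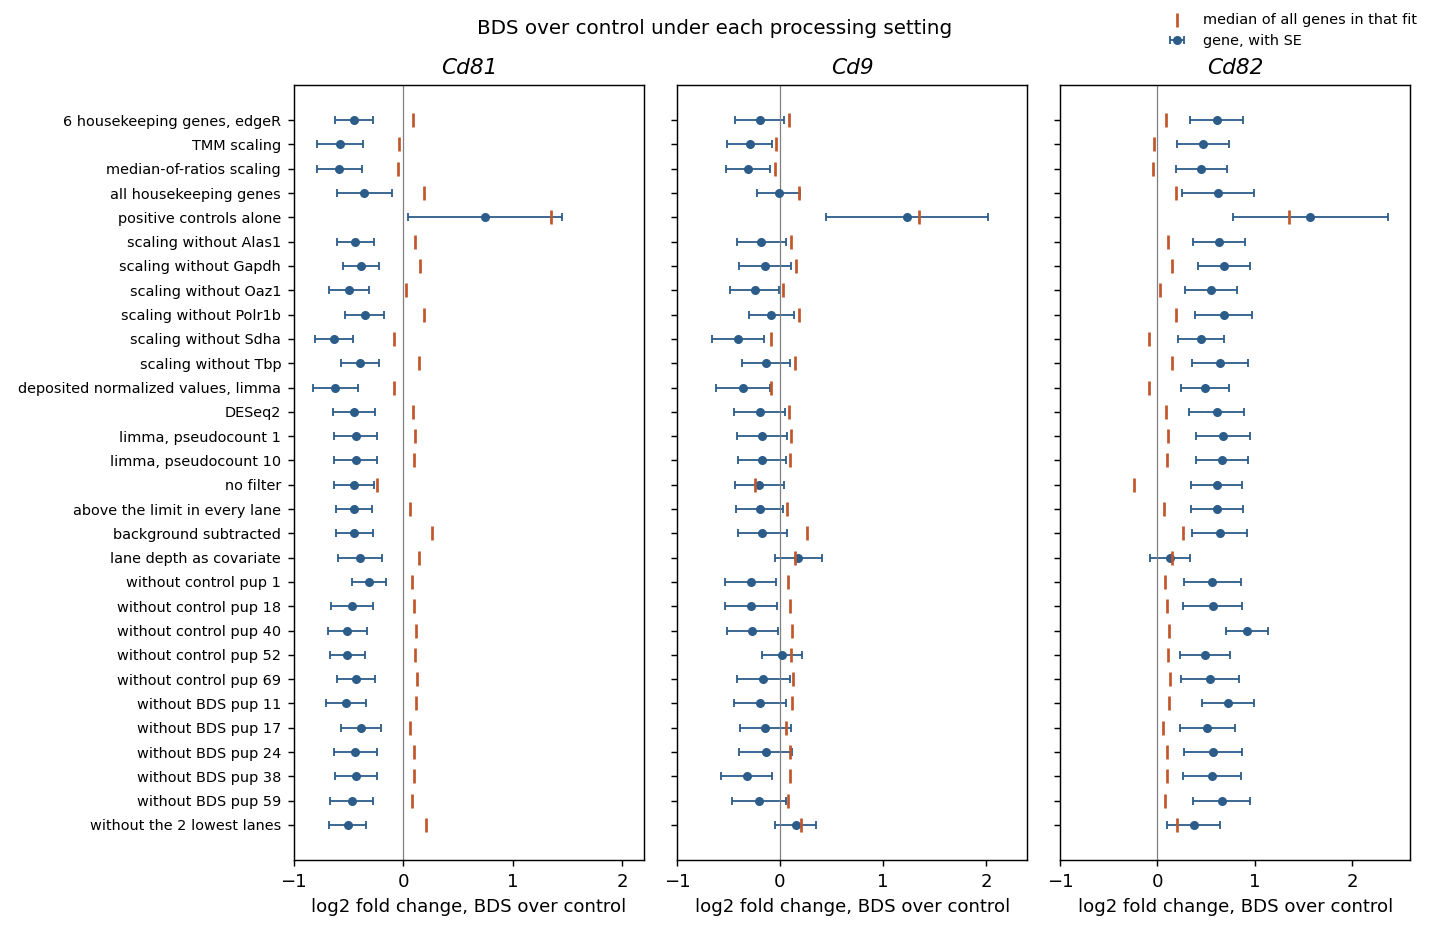
Log2 fold change of Cd81, Cd9 and Cd82, BDS over control (x axis, blue points with SE), in the reported fit (top) and under each other setting, with the median of all genes in that fit as an orange tick. Cd81 lies below the tick throughout, also with positive controls alone, where it is at 0.75 and the median at 1.35. For Cd81 a change of lane scaling moves point and tick nearly alike. With positive controls alone the distance from the tick went from 0.52 to 0.22 for Cd82 and from -0.29 to -0.12 for Cd9.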

How the data were processed

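The authors' deposited raw table holds raw barcode counts for each probe (545 endogenous and 14 housekeeping genes, 8 negative and 6 positive controls); the counting software is not given in the sources used here. Their second deposited table holds normalized counts, handled as a score since they were scaled and then rounded, with the percent of samples above background, the fold (a ratio of group means) and an unadjusted p-value from a t-test, per the file headers. The limit for a gene was the mean of its lane's negative controls plus 2 SD, and the 283 genes past it in 40% of lanes (4 of 10) were tested. Counts were fitted with edgeR 4.0.16 in R 4.3.3 (quasi-likelihood, two-sided; lanes scaled to the geometric mean of the 6 housekeeping genes named in the design text, Sdha, Tbp, Gapdh, Alas1, Oaz1 and Polr1b) and adjusted by Benjamini-Hochberg over the 283 genes. The design text names 1 more housekeeping gene than the number it states, and all 6 named were used. Sdha was kept in this scaling, whereas the authors' scale factors matched a housekeeping mean without it. Dividing a log2 fold change by the root of its F gave the SE. Dividing raw counts by the lane factor gave normalized counts; log2 values use a pseudocount of 1. DESeq2 1.42.0 and limma 3.58.1 were alternatives. Simulated data with known changes were used to test the edgeR script.

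The members, lists, rule for named genes and alternatives were chosen with earlier results of these data known. The rule named the members, every other tetraspanin of the panel, up to 4 higher and 4 lower partners with the smallest edgeR p, the 3 genes most like each member, and the housekeeping genes. Each pup came from its own litter, per the series' design text, and p-values measure the spread among pups. No pair of lanes within a group was alike to within sampling noise (smallest chi-square per degree of freedom 12.5). Counts follow PCR without molecular identifiers.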

Additional observations from a re-analysis of the deposited data

Results flagged for a closer look

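In control pups Cd82 stood at 1305 normalized counts in control 40, far above the next control at 657, and its share of endogenous counts there was 0.299% beside 0.159% in the next. The share of Cd9 in control 52 was 0.247%, and the next control had 0.137%. In each case the gap to the nearest lane exceeded Dixon's 95% limit for 5 samples, 0.71 of the group's range. This was looked for in 24 sets of 5 lanes, of which 3 passed, and chance passes about 1 in 20. The sets are not independent, since counts, shares and ratios reuse the same genes and lanes. Cd82 in control 40 passed on both scales. For Cd9 in control 52 the normalized count did not pass, with a gap of 0.578 of the range. Control 40 was the control lane of highest signal (lane factor 1.84) and control 52 that of lowest (0.196). The part of lane signal in these values was not tested.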

How the results depend on the processing

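Cd81 was lower in BDS lanes under 28 of 29 alternatives, from -0.63 to -0.32 on the log2 scale. With positive controls alone it turned to 0.75 and Cd9 to 1.23, in a fit where the median of all genes was 1.35. Relative to the median of all genes in the same fit, Cd81 was lower in 29 of 29. A change of lane scaling moves Cd81 and that median nearly alike, so those settings could hardly alter this count. Cd81 had also been picked with this contrast known, so the count is a description. Cd9 also turned to 0.18 with lane depth as a covariate and to 0.15 without the 2 lowest lanes, a setting chosen after seeing the data. Leaving out each pup in turn put it between -0.32 and 0.015. It passed the threshold under 0 alternatives (edgeR, limma or DESeq2 adjusted p from 0.174 to 0.976). Cd82 was higher under 29 of 29, from 0.13 with lane depth as a covariate to 1.57 with positive controls alone. Relative to the median of all genes it was higher in 28 of 29, and lower by 0.015 with lane depth as a covariate (median 0.15). It passed only without control 40, the control lane of highest signal, and leaving out each pup in turn gave 0.49 to 0.92 (adjusted p over all alternatives from 0.0254 to 0.734). Within-lane ratios moved by less than their pooled SD under 14 of 14 alternatives each. This is a wide bound, 0.63 for Cd82 to Cd81, 0.73 for Cd82 to Cd9 and 0.50 for Cd9 to Cd81. In that order the differences ran from 0.90 to 1.40, from 0.28 to 1.14 and from 0.06 to 0.62. The deposited values could hardly move a ratio, because a scale factor cancels in it. The causes of these shifts were not tested. Pup numbers are not shared between groups. No paired analysis was possible because the groups share no replicate number. Depth limits Cd82 and Cd53 most in control 52, at 92 and 48 raw counts.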

Other observations

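Cd9 and Cd53 ran opposite to each other across pups. With group means subtracted, r of their log2 normalized counts over 10 lanes was -0.92, and it was -0.73 with TMM scaling and -0.89 on the authors' deposited scores. In control 52 Cd9 was highest (959 normalized counts) and Cd53 lowest (245), and in BDS 38 Cd9 was the highest BDS value (696) and Cd53 the lowest (496). The genes most like Cd53 were Notch1 (r = 0.93), the RNA sensor Ddx58 (0.91) and the kinase Jak2 (0.89). This pair was noticed after the values were seen. Both genes also ran with lane signal, in opposite directions, and the part of that signal in their relation was not tested.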
